A study of Mus musculus with 4 samples.

Results

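The regions described here are 5 kb stretches of the mouse genome that were rich in 5-hydroxymethylcytosine (5hmC) in embryonic stem cells (ESC) and gave at most 1 5hmC read in neural progenitor cells (NPC). There were 1526 of them, out of 34532 ESC-rich stretches and out of 302221 stretches with usable input coverage. They are called NPC-poor tiles below. They were chosen by the measured reads themselves, so their low NPC level is how they were found and not a result. What the choice did not use is their spacing, their spread over chromosomes, the reads in the tiles beside them, and, in a parallel choice made on 1 DNA strand, the reads of the other strand.

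5hmC is made when TET enzymes oxidise 5-methylcytosine. It is abundant in ESC, and it can be lost when cells divide without new oxidation or when the modified base is excised and replaced. A hMeDIP read count reports how often an antibody against 5hmC captured DNA from a place, so a count near 0 may reflect little 5hmC or few reads.

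The ESC were cells of the 129/Ola 46C line, an ESC line with a GFP reporter of Sox1, a gene of the early neural lineage, grown in serum with leukemia inhibitory factor. The NPC were rosette-like, Sox1-GFP-positive cells derived from the same line and taken on day 9 of neural differentiation in N2B27 medium, so both groups share 1 genetic background and 1 parental line. For each cell type there was a 5hmC library and an input library, 4 libraries in all with 1 per group, and DNA of both cell types was precipitated in 1 tube after barcoding. Since no group was replicated, the spread between cultures is unknown and nothing was tested. Intervals are 95% intervals for counting error alone, and reads copied by PCR are not independent molecules. DNA reads cannot show whether the cells expressed ESC or NPC marker genes.

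Depth sets how much a count near 0 can say. On chromosomes 1 to 19 the ESC 5hmC library held 7042662 distinct reads, the ESC input 4944294, the NPC 5hmC library 1709355 and the NPC input 6438000. A distinct read is 1 line of a deposited file, that is, 1 position on 1 strand. Usable tiles had at least 20 reads in the summed inputs and stayed below a fixed upper limit, which kept no tile out that met the rest of the rule. Their median was 13 ESC 5hmC reads and 3 NPC 5hmC reads. Of these 302221 tiles, 64195 (21.2%) held at most 1 NPC 5hmC read. A tile was counted as ESC-rich when it also held at least 40 ESC 5hmC reads and its ESC 5hmC exceeded input at least 2-fold, after scaling to library totals with a pseudocount of 0.5 reads. Among these 34532 tiles, 1526 (4.42%) held at most 1 NPC 5hmC read. Few NPC reads were thus a smaller share of ESC-rich tiles than of tiles in general.

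The NPC-poor tiles stood somewhat below other ESC-rich tiles in ESC. They held 40 to 212 ESC 5hmC reads with a median of 54.5, against a median of 63 in the 33006 other ESC-rich tiles. Their ESC level was 4.25 5hmC reads per input read (4.19 to 4.31), against 4.49 (4.48 to 4.50) in the others. In NPC, 348 of them held 0 reads and 1178 held 1 read, and these values follow from the choice. Pooled over all 1526 tiles, 1178 NPC 5hmC reads lay over 29644 NPC input reads, which gives an NPC/ESC ratio of 5hmC per input of 0.00935 (0.00880 to 0.00993). The other ESC-rich tiles had a pooled ratio of 0.0947. This ratio compares reads as counted and is not scaled to the size of the 5hmC libraries. A place that held the same share of all 4 libraries would have a ratio of 0.186, the value of their totals. The NPC 5hmC total may be low through a lower level of 5hmC or through fewer reads sequenced, which cannot be told apart here. The 0.186 of the totals and the 0.170 of all usable tiles give the scale of the ratio. ESC-rich tiles were chosen for high ESC reads, which lowers their ratio, so their nearest baseline is the 0.0914 of all ESC-rich tiles. The NPC input was present throughout, with 7 to 46 reads per NPC-poor tile and a median of 19, against a median of 20 in the other ESC-rich tiles. NPC DNA was thus sampled in every one of these tiles.

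The tiles near each limit of the rule are given as a description. Just outside the limit on NPC reads, 2159 ESC-rich tiles held 2 reads and 3033 held 3. At the limit on ESC reads, 182 NPC-poor tiles held 40 to 42 ESC reads, and 172 tiles that met the rest of the rule held 37 to 39. At the limit on enrichment, 98 NPC-poor tiles were enriched between 2-fold and 2.1-fold in ESC, and 114 tiles fell between 1.9-fold and 2-fold. At the lower limit on summed inputs the 2 sides differed more. There 88 NPC-poor tiles held 20 to 22 input reads, and 34 tiles that met the rest of the rule held 17 to 19. The NPC-poor tiles were the low end of a continuous distribution, with no gap between them and the tiles with a few more reads.

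Their number was set beside the number that counting error would give if every ESC-rich tile shared 1 NPC/ESC ratio. The figure was computed in closed form, as a sum of Poisson probabilities of at most 1 read, with each tile's mean set by its ESC reads. With the ratio of all 302221 tiles, 0.170, the sum was 6.35 tiles. ESC-rich tiles as a class had a lower ratio, 0.0914 (0.0909 to 0.0919), and with that value the sum was 397 tiles, so that the 1526 observed were 3.85 times as many. With a separate ratio for each of the ESC enrichment classes it was 354 tiles. For tiles with no NPC read at all, 348 were observed against 60.3 from the ratio of ESC-rich tiles. These sums are slightly high, since the model's mean was 8.19 NPC reads per tile and the observed mean 8.55. NPC counts of ESC-rich tiles also varied far more than the Poisson model with class ratios allows, with a variance of 53.2 against 13.8, and they exceeded the model at the high end as well as at the low end.

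**Figure D1:**
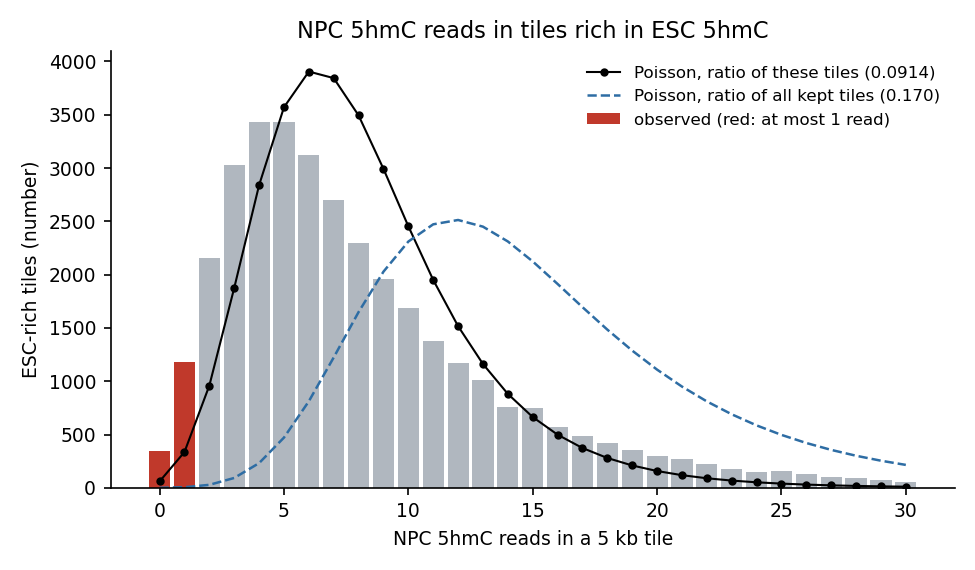
Bars give the number of ESC-rich 5 kb tiles (y axis) by the NPC 5hmC reads they held (x axis, shown up to 30 reads); red bars are the 348 tiles with 0 reads and the 1178 with 1 read. The black line is the Poisson number with the NPC/ESC ratio of these tiles and the dashed line that with the ratio of all tiles; the red bars rise above both lines and run on into the grey bars without a gap.

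The excess over the model was uneven across ESC levels. Among the 7872 ESC-rich tiles with 40 to 49 ESC reads, 558 (7.09%) were NPC-poor, against 267 from the ratio of ESC-rich tiles. Among those with 60 to 79 ESC reads 401 of 10339 were, against 34.1. Among the 4005 tiles with 100 ESC reads or more 71 were, which is 1.77% (1.39 to 2.23), against 0.108 from that ratio and 5.65 from the class ratios. The share of NPC-poor tiles thus fell as ESC reads rose. By ESC enrichment, set against the class ratios, the excess was greatest at the low end. Between 2-fold and 3-fold 927 tiles were NPC-poor against 113 in the model, between 3-fold and 4-fold 419 against 112, between 4-fold and 6-fold 152 against 89.5, and at 6-fold or more 28 against 38.9. The most enriched tiles thus held no more NPC-poor tiles than that model. The 1 ratio of ESC-rich tiles gave the reverse order, with sums of 302, 74.2, 18.7 and 1.56 for the same classes. Relative to these sums the excess was greatest at 6-fold or more. How the excess changed with ESC enrichment thus depended on the ratio used.

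The 10 NPC-poor tiles with most ESC reads, 135 to 212, are the extremes of the set, where a count near 0 says most. With fewer reads the ratio of a single tile is much less certain: the tile on chromosome 17 from 86970001 to 86975000, with 45 ESC 5hmC reads and 1 NPC 5hmC read, had a ratio of 0.0417 (0.000919 to 0.370). On chromosome 4, the tile from 149025001 to 149030000 held 212 ESC 5hmC reads over 15 input reads and 0 NPC 5hmC reads over 25 input reads. A count of 0 allows up to 3 reads, so its NPC/ESC ratio was at most 0.00849 with the input counts taken as exact. As counted, this bound lies 118-fold lower in NPC, and 21.95-fold below the 0.186 of the library totals. It rests on the same counts that the tile was picked for and ignores that choice. It is thus not a lower limit on the difference between the cells. The 2 neighbours of this tile held 11 and 14 NPC reads, and the ratio over the 4 tiles on either side was 0.0453 (0.0310 to 0.0662). NPC reads were thus missing in the tile while both neighbours held some.

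The other 3 tiles with 0 NPC reads had flanks with reads as well. On chromosome 1 from 71655001 to 71660000, 158 ESC reads over 7 input reads stood against 0 over 18, a ratio of at most 0.00738, with flanks at 0.0979 (0.0654 to 0.147). On chromosome 10 from 126445001 to 126450000, 157 over 22 stood against 0 over 27, a ratio of at most 0.0156, with flanks at 0.0559 (0.0378 to 0.0826). On chromosome 2 from 30870001 to 30875000, 136 over 18 stood against 0 over 29, a ratio of at most 0.0137, with flanks at 0.0877 (0.0604 to 0.127). The flanks of all 4 tiles had ratios below 0.186. Scaled to library totals, their 5hmC over input was 1.86 to 4.14 in ESC and 0.782 to 1.27 in NPC. These flanks were thus rich in ESC 5hmC, while NPC stood near its library average.

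The remaining 6 of the 10 held 1 NPC 5hmC read each. The tile on chromosome 19 from 46135001 to 46140000 held 170 ESC 5hmC reads over 17 input reads and had a ratio of 0.00500 (0.000120 to 0.0366), with flanks at 0.145 (0.0986 to 0.214). The tile on chromosome 7 from 108030001 to 108035000 held 157 over 20, with a ratio of 0.00637 (0.000153 to 0.0458) and flanks at 0.0832 (0.0573 to 0.121). The tile on chromosome 5 from 114850001 to 114855000 held 150 over 21, with a ratio of 0.00467 (0.000114 to 0.0322). Its flanks stood at 0.0372 (0.0259 to 0.0535), among the 5 lowest of all, so that this tile lay in a stretch with little NPC 5hmC relative to ESC.

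Further tiles of this kind lay on chromosomes 4 and 7. On chromosome 4 the tile from 141585001 to 141590000 held 139 ESC 5hmC reads over 13 input reads, with a ratio of 0.00346 (8.41e-05 to 0.0258) and flanks at 0.0721. The tile from 43580001 to 43585000 held 135 over 15 in ESC and 1 over 46 in NPC, the highest NPC input of any NPC-poor tile, with a ratio of 0.00242 (5.95e-05 to 0.0171) and flanks at 0.1197. On chromosome 7 the tile from 52540001 to 52545000 held 138 over 22, with a ratio of 0.00759 (0.000182 to 0.0538) and flanks at 0.107. That all 10 lay below their flanks follows from picking tiles with a count at its low end. Their intervals, and the bounds of the tiles with 0 reads, ignore this selection.

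Of the 5 NPC-poor tiles with the highest ESC enrichment, 4 had 4 to 7 ESC input reads, against a median of 14 in NPC-poor tiles, and the chromosome 4 tile with 212 ESC 5hmC reads had 15. The highest, 17.6-fold, lay on chromosome 10 from 75865001 to 75870000 and held 112 ESC 5hmC reads with 4 input reads. NPC had 1 with 25 there. Next came the tiles on chromosome 1 (14.8-fold) and chromosome 4 (9.62-fold) already described with 0 NPC reads. On chromosome 8 from 37630001 to 37635000 the enrichment was 9.31-fold, from 99 reads over 7. The fifth, 8.81-fold on chromosome 3 from 140870001 to 140875000, stood alone: it held 56 ESC 5hmC reads, while the 8 tiles around it together held 12 ESC and 11 NPC 5hmC reads.

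The reads beside the NPC-poor tiles were not used to choose them. In the 2798 adjacent tiles that were not NPC-poor themselves, the NPC/ESC ratio was 0.102 (0.0998 to 0.104). In the 52366 tiles adjacent to other ESC-rich tiles it was 0.125 (0.125 to 0.126). The ratio was thus 18.7% lower beside NPC-poor tiles, a ratio of the ratios of 0.813 (0.795 to 0.831). A tile beside both kinds counts in both sets, which this interval ignores. The difference came from NPC, with 0.275 against 0.352 5hmC reads per input read. ESC was lower too, with 2.70 against 2.81, which by itself raises the ratio. The NPC level beside the NPC-poor tiles was close to the 0.270 of all 302221 tiles, against 0.0397 inside the NPC-poor tiles.

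The NPC level rose at the edge of the tile. In the first 1 kb outside, NPC held 0.257 5hmC reads per input read (0.247 to 0.268), and the ratio was 0.0877 (0.0837 to 0.0920), against 0.115 (0.114 to 0.116) outside other ESC-rich tiles. From 4 to 5 kb outside it was 0.106 (0.102 to 0.111) against 0.124, from 10 to 20 kb 0.117 (0.115 to 0.119) against 0.128, and from 20 to 50 kb 0.126 (0.125 to 0.127) against 0.132. The gap to other ESC-rich tiles narrowed with distance. At 20 to 50 kb NPC held 0.297 against 0.340 and ESC 2.36 against 2.58 5hmC reads per input read. These values count a place once for each tile it is near, so the same reads enter repeatedly and the intervals by distance are too narrow. They cannot show whether the gap at 20 to 50 kb exceeded counting error. With each tile counted once per set, tiles 6 to 20 away had the same NPC level in both sets, 0.304, and the lower ratio there came from a higher ESC level, 2.26 against 2.03. A tile near both kinds counts in both sets. The set around other ESC-rich tiles held 173350 of the 302221 usable tiles, so it stands for usable tiles at large. Tiles are not replicates, and their reads share the same 4 libraries. Inside the tile the 1178 NPC reads lay evenly, with 18.2% to 21.1% of them in each of its 5 parts of 1 kb.

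**Figure D2:**
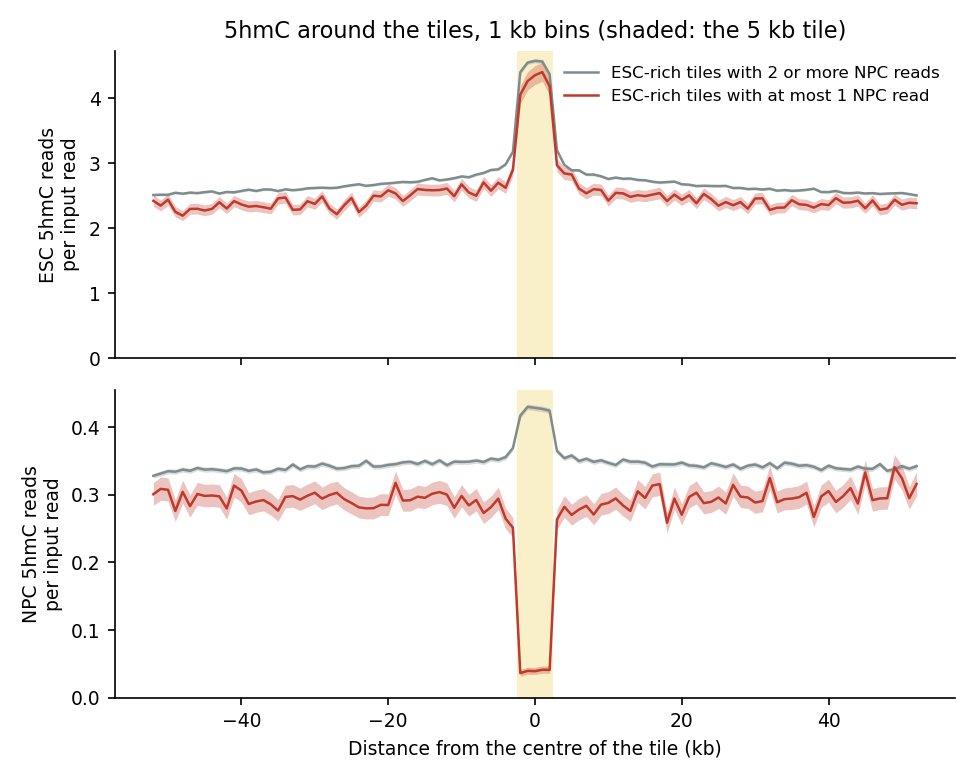
5hmC reads per input read (y axes, ESC above and NPC below) in 1 kb bins against the distance in kb from the centre of the tile, pooled over 1526 NPC-poor tiles (red) and 33006 other ESC-rich tiles (grey), with shaded 95% counting intervals. Outside the tile a place counts once for each tile it is near, so these intervals are too narrow there. In ESC both sets peak in the tile; in NPC the red line drops to about 0.0397 within the tile, which follows from the choice, and returns outside it to a level below the grey line.

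Adjacent tiles that were ESC-rich themselves allow a narrower comparison, although the ESC reads of the 2 sets of neighbours were not matched. Of 2841 usable tiles adjacent to NPC-poor tiles 924 (32.5%) were ESC-rich, against 36.5% of those adjacent to other ESC-rich tiles. The median of these 924 was 5 NPC 5hmC reads, with quartiles of 3.75 and 8, against a median of 7 with quartiles of 4 and 11 beside other ESC-rich tiles. Enrichment in NPC of at least 2-fold with 10 or more reads was found in 15.2% (12.9 to 17.6) of the 924, against 24.97% (24.4 to 25.6). Neighbours of NPC-poor tiles thus held fewer NPC reads than neighbours of other ESC-rich tiles. Of 1351 NPC-poor tiles with usable tiles on both sides, 1029 (76.2%) had 2 or more NPC reads in each of them, and 28 had at most 1 in both. These 2 counts were not made around other tiles, so they have no background. Of all usable tiles, 21.2% held at most 1 NPC read.

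The 4 tiles on either side varied from tile to tile. Over 1509 NPC-poor tiles with at least 50 ESC and any NPC reads in these flanks, the median flank ratio was 0.113, with quartiles of 0.0822 and 0.153, and 215 (14.2%) were above the 0.186 of the library totals. The same share is not given for the flanks of other ESC-rich tiles, so it has no background. The lowest was on chromosome 14, around the tile from 8965001 to 8970000, where 12 NPC 5hmC reads over 126 input reads stood against 253 over 87 in ESC, a ratio of 0.0327 (0.0173 to 0.0621). Besides the chromosome 5 tile named above, low flanks surrounded the tile starting at 148695001 on chromosome 5 (0.0373), the tile starting at 81015001 on chromosome 17 (0.0378) and the tile starting at 67245001 on chromosome 18 (0.0394).

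At the other end, some NPC-poor tiles sat among tiles that held a larger share of the NPC than of the ESC 5hmC library. Around 34400001 to 34405000 on chromosome 14 the flank ratio was 0.624 (0.376 to 1.04), although the flanks held only 55 ESC 5hmC reads over 90 input reads. The flanks of 108595001 to 108600000 on chromosome 12 had 0.552 (0.359 to 0.848), and those of 48925001 to 48930000 on chromosome 17 had 0.502 (0.344 to 0.731). Those of 21310001 to 21315000 on chromosome 10 had 0.489 (0.331 to 0.722), and the tile itself held 74 ESC and 0 NPC 5hmC reads. The fifth, around 28400001 to 28405000 on chromosome 5, was at 0.463 (0.318 to 0.675). The flanks of these 5 tiles were poor in ESC 5hmC, with at most 145 reads over 8 tiles, so that each tile was a local ESC peak. Scaled to library totals, their 5hmC over input was 0.429 to 0.753 in ESC and 1.44 to 1.98 in NPC, so that these flanks stood higher in NPC than in ESC on that scale and lower as counted.

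A parallel choice was made on 1 strand and measured on the other, whose reads had no part in it. Tiles were taken with at least 20 ESC 5hmC reads and at least 2-fold ESC enrichment on the plus strand, and 2339 of them had no plus-strand NPC 5hmC read. On the minus strand these tiles had an NPC/ESC ratio of 0.0624 (0.0603 to 0.0646), against 0.106 (0.105 to 0.107) in the 32687 tiles with 1 or more plus-strand reads. Choosing on the minus strand and measuring on the plus strand gave 0.0618 (0.0598 to 0.0639) against 0.105. The level on the strand not used was thus about 41.0% lower than in other ESC-rich tiles, and far from 0.

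The counts per tile tell the same. Tiles with no plus-strand NPC read held on average 2.17 NPC reads on the minus strand, against 4.03 in the others, and 16.7% (15.2 to 18.3) of them held none there, against 7.86%. In ESC the 2 sets were near each other on the minus strand, at 3.58 and 3.65 5hmC reads per input read. This choice was added after the data were seen and its tiles are not the 1526 tiles above. The strands are not fully separate either, since both ends of 1 amplified fragment can be read.

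**Figure D3:**
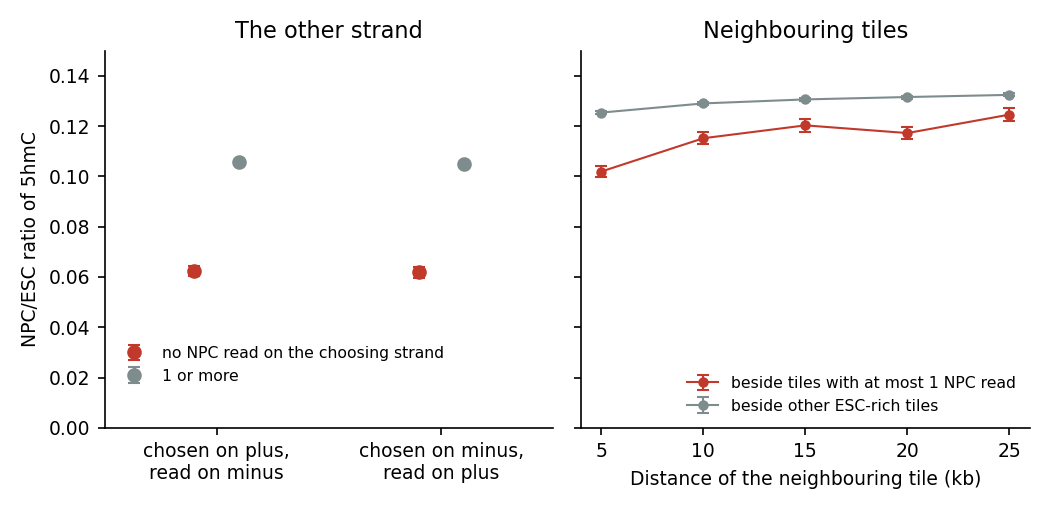
NPC/ESC ratio of 5hmC per input read (y axis), with 95% counting intervals. Left, on the strand not used, tiles chosen for no NPC read on 1 strand (red, 0.0624 and 0.0618) and the other ESC-rich tiles (grey, 0.106 and 0.105); right, in tiles 5 to 25 kb away from NPC-poor tiles (red) and from other ESC-rich tiles (grey), where red rises from 0.102 toward grey.

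The position of the grid decided which stretches were counted. With the grid moved by 2.5 kb, 1582 tiles met the rule, close to the 1526 on the original grid. Only 423 of the original tiles (27.7%) were overlapped by one of them, although 1255 were overlapped by a moved tile that was ESC-rich. The number was thus nearly constant while most of the individual tiles changed.

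NPC-poor tiles were scattered, mostly as single tiles. They formed 1504 runs, of which 1483 were single tiles, 20 were pairs and 1 was a run of 3. A second NPC-poor tile lay next to 43 of them, or 2.82% (2.05 to 3.78). The same held for 2.68% of all ESC-rich tiles. Within 50 kb it was 20.97% (18.95 to 23.1) of the NPC-poor tiles and 19.1% (18.7 to 19.5) of all ESC-rich tiles. Seen from the other side, 4.65% (3.39 to 6.22) of the ESC-rich tiles next to an NPC-poor tile were NPC-poor. The background was 4.42% of all ESC-rich tiles and 3.78% (3.51 to 4.05) of those next to other ESC-rich tiles. The shares next to each other were thus within counting error of those of ESC-rich tiles. With a limit of 2 NPC reads in place of 1 they were not: 9.23% (8.31 to 10.2) of the 3685 tiles then had another next to them, against 6.63% (6.37 to 6.90) of ESC-rich tiles, and 14.8% (13.4 to 16.4) of the ESC-rich tiles next to one were of the same kind, against 10.7% of all. The median distance from one to the next on a chromosome was 485 kb, with quartiles of 145 and 1608 kb.

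The run of 3 lay on chromosome 11 from 100445001 to 100460000. Its tiles held 62, 62 and 60 ESC 5hmC reads over 21, 10 and 14 input reads. They held 1, 1 and 0 NPC 5hmC reads over 25, 17 and 38 input reads. The tiles on its 2 sides held 9 and 4 NPC reads.

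When tiles at most 50 kb apart were joined, there were 1351 groups, 1206 of them with a single tile and none with more than 4. The 5 largest by ESC reads spanned 65 to 105 kb. On chromosome 17 from 28960001 to 29030000, 4 of 11 ESC-rich tiles were NPC-poor. They held 291 ESC and 3 NPC 5hmC reads in all, and a tile between them held 27 NPC reads. Since the NPC-poor tiles lower any ratio that includes them, it was taken over the 10 other tiles of the span, where it was 0.109 (0.0808 to 0.147). On chromosome 8 from 34930001 to 34995000, 4 of 9 were NPC-poor and the other tiles of the span had 0.0778 (0.0524 to 0.116).

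The other 3 groups were alike. On chromosome 14 from 8710001 to 8775000, 4 of 5 ESC-rich tiles were NPC-poor, with a ratio of 0.103 (0.0693 to 0.153) in the other tiles. On chromosome 8 from 125750001 to 125855000 it was 4 of 10, with 0.0940 (0.0718 to 0.123). On chromosome 17 from 86970001 to 87060000 it was also 4 of 10, with 0.122 (0.0909 to 0.164). In each of these 5 groups a tile between the NPC-poor ones held 11 or more NPC 5hmC reads. The intervals of the 5 ratios overlapped one another.

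Windows of 1 Mb gave a wider view. NPC-poor tiles occurred in 849 of the 1665 windows that held an ESC-rich tile, with 1 in 455 windows, 2 in 216 and 3 or more in 178. The windows with most were looked up after their values were seen. The window from 148000001 to 149000000 on chromosome 5 held 9 among 51 ESC-rich tiles (17.6%, 8.40 to 30.9). The window from 8000001 to 9000000 on chromosome 14 held 7 among only 15 (46.7%, 21.3 to 73.4), and both the group of 4 and the tile with the lowest flanks lay in it. Its other 8 ESC-rich tiles had a ratio of 0.0747 (0.0510 to 0.109), and its NPC input was 1.28 times its ESC input, against 1.29 in all tiles. That quotient was thus near the value of all tiles, but it does not show how much input there was. The usable tiles of this window held 1040 ESC input reads, against 2539 in the chromosome 5 window, so its usable input was low.

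All 19 autosomes held NPC-poor tiles, from 46 on chromosome 19 to 128 on chromosome 5. As a share of ESC-rich tiles they were fewest on chromosome 4, at 2.73% (2.16 to 3.39), and most frequent on chromosome 14, at 6.74% (5.29 to 8.46). The interval lay above the background of 4.42% on chromosomes 14 and 6 (5.83%, 4.72 to 7.11), and below it on chromosomes 4, 2 (3.51%, 2.83 to 4.29) and 11 (3.60%, 2.96 to 4.34). The other 14 intervals included it. No adjustment was made for comparing 19 chromosomes.

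Part of that spread moved with the ESC counts of the chromosomes. Among ESC-rich tiles with fewer than 60 ESC reads, the share was again lowest on chromosome 4, at 3.63% (2.59 to 4.93). It was highest on chromosome 6, at 8.23% (6.32 to 10.5), with chromosome 15 at 8.16% (6.21 to 10.5) and chromosome 14 at 7.75% (5.64 to 10.3). Over all autosomes it was 7.09% with 40 to 49 ESC reads and 4.89% with 50 to 59. The intervals of chromosomes 6, 15 and 14 included the higher of these values and lay above the lower. The share of both classes together was not computed, so an excess on chromosome 14 within them is not shown. Along the chromosomes the share among all ESC-rich tiles fell from the centromeric to the distal end. This share was not matched for ESC reads, with which it also changed. With each chromosome cut into 4 equal parts, it was 5.49% (4.87 to 6.17) in the first part, 5.05% in the next, 4.54% in the one after and 3.75% (3.46 to 4.06) in the last, which also held 15471 of the 34532 ESC-rich tiles.

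**Figure D4:**
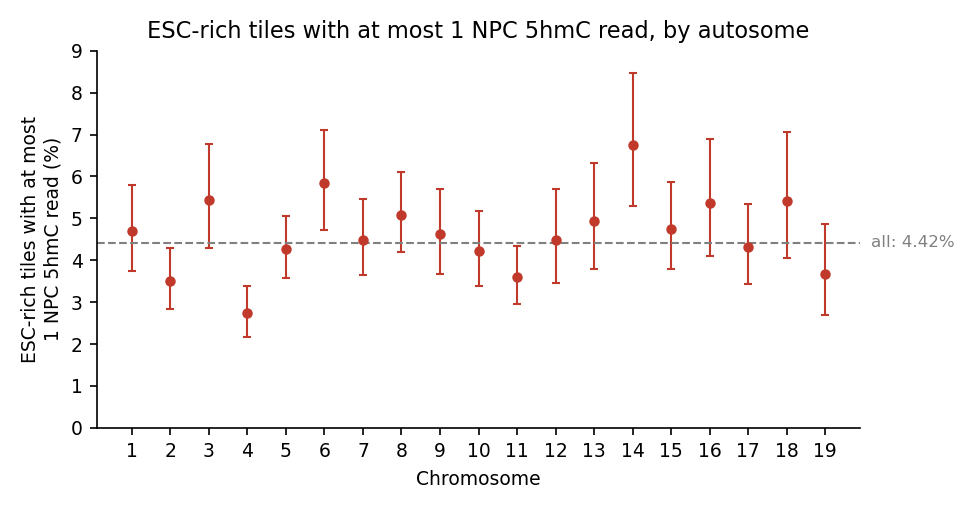
Percentage of ESC-rich tiles that held at most 1 NPC 5hmC read (y axis) on each autosome (x axis), with exact 95% binomial intervals; the dashed line is the share over all autosomes, 4.42%. Chromosome 14 is highest at 6.74% and chromosome 4 lowest at 2.73%.

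Stretches free of NPC reads were measured around the 348 NPC-poor tiles with 0 reads, so that each is longer than a tile by the choice. The distance between the nearest NPC 5hmC reads on either side defined 346 stretches with a median of 7.45 kb, and 69 were longer than 10 kb. The same lengths were not measured around other tiles, so these have no background. The longest, 20.5 kb, lay on chromosome 6 from 59005079 to 59025529 and held 58 ESC 5hmC reads, 36 ESC input reads and 52 NPC input reads. On the same chromosome, 19.9 kb from 142475985 to 142495931 held 139 ESC 5hmC reads over 70 input reads and 65 NPC input reads. The next, 18.9 kb on chromosome 18 from 37134794 to 37153676, held 83 ESC 5hmC reads over 31 input reads and only 24 NPC input reads, 0.774 times the ESC input against 1.29 in all tiles. On chromosome 12, 17.3 kb from 106877037 to 106894359 held 175 ESC 5hmC reads over 63 input reads and 69 NPC input reads. These were named after their lengths were seen. Each of the 4 held NPC input reads, fewest on chromosome 18.

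Strand and stacking of reads were alike in both sets. The plus strand held 49.96% (49.6 to 50.3) of the ESC 5hmC reads in NPC-poor tiles. All deposited reads exceeded distinct ESC reads by 2.61% in NPC-poor tiles and by 2.59% in the other ESC-rich tiles. In NPC, 14 of the 1526 tiles had a position with more than 1 read, so that their deposited reads were 2 or 3.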

How the data were processed

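5hmC-precipitated and input DNA of ESC and NPC was sequenced without replicates. Per the labels' protocols, sonicated DNA (under 500 bp) of each cell type was barcoded, about 4 µg of each was pooled, 10% was kept as input and products were amplified for 10 to 12 cycles. Each deposited file lists positions on mm9 extended to 350 bp with a whole-number read count, per the values. Bowtie 0.12.7 is named in the submitters' processing notes. Treatment of multiply matching reads is not given in the sources used here.

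Here each line counted as 1 distinct read, placed by its midpoint in 5 kb tiles from position 0, with Python 3.11.15 (scipy 1.17.1, numpy 2.4.6, pandas 2.3.3). Level intervals are exact (Clopper-Pearson), those of pooled NPC/ESC ratios use the log scale and those of single tiles are exact conditional. A tile with 0 reads was bounded at 3 reads per library. Scripts were tested on simulated data. Tiles were named by rule: the 10 with most ESC reads, the 5 with highest ESC enrichment, the 5 largest groups, and the 5 lowest and 5 highest flank ratios. The tile rule and these lists were chosen with earlier results of these data known. Alternatives changed the grid, tile size, reads used, limits and pseudocount. No mm9 genome or annotation was used here, so no genes or sequences are given.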

Additional observations from a re-analysis of the deposited data

How the results depend on the processing

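No paired analysis was possible because each group held 1 library, which also leaves no replicate to omit. All deposited reads, placement by read start, a pseudocount of 1 and at least 10 reads in each input left the number of NPC-poor tiles between 1339 and 1570, and every other value within its interval or within 1.5 times of it. The NPC/ESC ratio was lower beside NPC-poor than beside other ESC-rich tiles in all 14 settings computed. The share with a second NPC-poor tile adjacent, or within 50 kb where that was the setting, was above that of ESC-rich tiles in 10 of 13. Some of these differences were small, such as 2.63% against 2.61% with a pseudocount of 1.

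The number itself followed the limits. It was 348 with 0 NPC reads, 3685 with at most 2, 601 with at least 60 ESC reads, 599 with 3-fold ESC enrichment, 319 with summed inputs of at least 40 and 101 with tiles of 10 kb. The closed-form number was 6.35 with the ratio of all tiles, 397 with that of ESC-rich tiles and 354 with class ratios. With the ratio of all tiles it was 0.594, 34.5, 0.0851, 1.29 and 0.172 for 0 reads, at most 2 reads, 60 ESC reads, 3-fold enrichment and 10 kb. With the ratio of ESC-rich tiles it was 60.3, 1356, 53.5, 262 and 23.6, each below the number found.

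The adjacent share of 2.82% became 1.15% (0 reads), 9.23% (at most 2), 1.67% (3-fold), 1.88% (inputs of at least 40) and 0% of 101 tiles (10 kb), which allows up to 2.97%. Within 50 kb it was 20.97%. The ratio in adjacent tiles was 0.0957 (0 reads), 0.109 (at most 2), 0.0894 (60 ESC reads), 0.0974 (3-fold), 0.0727 (inputs of at least 40), 0.105 (moved grid) and 0.110 (10 kb). It was 0.1201 in tiles 2 to 5 away and 0.135 in tiles 6 to 20 away. The lowest chromosome share became 0.595% (0 reads), 8.36% (at most 2), 3.54% (moved grid), 1.23% (inputs of at least 40) and 0.130% (10 kb). The highest became 1.86%, 14.8% and 1.29% for 0 reads, at most 2 reads and 10 kb. The lowest was on chromosome 19 with inputs of at least 40 and with 10 kb tiles, and on chromosome 4 otherwise. The highest was on chromosome 14, apart from the moved grid, where it was on chromosome 13. The NPC 5hmC library, with a median of 3 reads per tile, limits what a count of 0 or 1 can show.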

Other observations

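The rule was limited to autosomes. On chromosome X, with the same limits and autosomal library totals, 855 tiles had enough input, 29 were ESC-rich, and 6 of these (20.7%, 7.99 to 39.7) held at most 1 NPC 5hmC read. Chromosome 19, the autosome with fewest, had 8405 usable tiles. Few tiles of chromosome X thus reached the input limit, and the read limits were not adjusted for its coverage. Its share is therefore not comparable with the 4.42% of autosomes.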
